A study of Mus musculus with 4 samples.

Results

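The Bcl2 family genes examined here were 10 of the 55401 genes in the deposited table, chosen by gene symbol. They were 3 guardians of survival (Bcl2, Bcl2l1, Mcl1), 2 effectors of death (Bax, Bak1) and 5 BH3-only genes (Bid, Bcl2l11, Bad, Bbc3, Bik). RNA was sequenced from cultured mouse cells of the C57BL/6 strain that the labels call female germline stem cells (FGSCs) from the ovary. There were 2 Daidzein libraries, from cells treated with the soy isoflavone daidzein, and 2 Control libraries, from cells treated with the solvent DMSO. Both groups grew in a serum medium with 4 added factors: glial cell line-derived neurotrophic factor (GDNF), epidermal and basic fibroblast growth factors (EGF and bFGF) and leukemia inhibitory factor (LIF). The treatment is said to cover different concentrations of daidzein, and the sources used here give neither the dose behind these libraries nor its duration, the age and number of donor animals or any clonal origin of the cells. The labels do not say that the replicates were separate cultures, so each p-value covers only the spread among these 4 libraries.

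Proteins of the Bcl2 family decide whether the outer membrane of the mitochondrion stays intact. Bax and Bak1 are the effectors that oligomerise in that membrane and release cytochrome c, guardians such as Bcl2, Bcl-xL (from Bcl2l1) and Mcl1 bind and restrain them, and BH3-only proteins relay death signals by occupying the guardians or engaging the effectors directly. In many tissues the outcome depends on the relative amounts of these classes, and in blood lineages Mcl1 and Bcl-xL are well known survival factors. Akt, the kinase named in the title of the series, phosphorylates the Bad protein, a step that needs no change in transcript level. It can also act on transcripts of the family, since Foxo1 can induce Bcl2l11 when Akt is inactive.

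All 10 members, selected by symbol, share the BH3 core, a helical segment that takes part in binding within the family. The motif searched for is a pattern of the BH3 core of this family. Its matches therefore describe the members and are no test. The coding sequence of each was searched in frame for a leucine codon, 2 codons of any kind, a codon for alanine, valine, isoleucine or methionine, a codon for glycine, alanine or serine, and an aspartate codon. Each member had exactly 1 match in its longest annotated coding sequence, and 9.0% of 21584 mouse coding genes had at least 1. Between members the 18 core bases were identical at 7 to 15 positions over 45 pairs, lowest for Bcl2l1 and Bak1 and highest for Bcl2l11 and Bbc3. The fifth codon was GGN in 8 members, AGC in Bad and GCG in Bbc3. The members below, from the GENCODE M21 transcripts of GRCm38, are the most abundant of each class, with Bad and Bbc3 added for that codon. The capitals mark the 18 bases of the core, printed 5′ to 3′ on the coding strand with 9 bases on either side.
Mcl1: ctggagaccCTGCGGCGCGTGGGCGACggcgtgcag
Bcl2l1: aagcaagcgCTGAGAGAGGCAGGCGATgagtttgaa
Bax: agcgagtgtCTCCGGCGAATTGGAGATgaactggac
Bak1: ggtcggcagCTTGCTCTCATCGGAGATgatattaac
Bid: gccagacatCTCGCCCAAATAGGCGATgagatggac
Bbc3: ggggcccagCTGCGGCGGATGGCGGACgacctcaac
Bad: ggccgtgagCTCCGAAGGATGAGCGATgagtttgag

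Library totals were 17192077 and 18537134 counts with daidzein, against 16230400 and 17119625 in Control. Of 11700 genes with enough reads to test, 0 rose and 2 fell with daidzein, and 0 of those were members or genes listed here. Germ cell markers other than Zbtb16 were near 0. Pou5f1 had 0 reads in all 4 libraries, Ddx4 had 0 reads in both Daidzein libraries against 2 and 0 in Control, and Dazl had 1 and 0 reads with daidzein against 0 in both Control libraries. Of the 8 germ cell markers, only Zbtb16 had enough reads to test. The 8 summed to 4.27 to 4.73 CPM (counts per library total after TMM scaling) with daidzein against 4.70 to 5.65 CPM in Control. Most of this came from Zbtb16, at 3.92 and 4.62 CPM with daidzein and 4.27 and 5.42 CPM in Control. The 4 leukocyte markers summed to 1200 to 1220 CPM with daidzein and 1200 to 1260 CPM in Control, with Ptprc, the leukocyte antigen CD45, at 162 and 171 CPM with daidzein and 160.5 and 166 CPM in Control. Among 7 mast cell markers, Kit had 622 and 655 CPM with daidzein and 654 and 656 CPM in Control, Cpa3 had 777 and 729 CPM with daidzein and 715 and 702 CPM in Control, and Fcer1a, Mcpt4 and Tpsb2 had 0 reads. The list summed to 1390 to 1400 CPM with daidzein and 1360 to 1370 CPM in Control. The 4 macrophage markers summed to 122 to 130 CPM with daidzein and 136 CPM in both Control libraries, nearly all of it from Adgre1 at 117 and 126 CPM with daidzein and 131 CPM in both Control libraries. Csf1r, the receptor that defines macrophages, had at most 2 reads in any library, Lyz2 at most 1.67 CPM and Cd68 at most 3.96 CPM. The 4 erythroid and platelet markers summed to 225 to 230 CPM with daidzein and 230 to 251 CPM in Control, of which Itga2b gave 206 and more in every library, while Hba-a1 had at most 1 read in any library. Markers of T and B cells summed to at most 0.234 CPM in any library and ovarian somatic and stromal markers to at most 2.56 CPM, with Foxl2 and Fshr at 0. No marker passed the test between the groups. The levels below are therefore those of the cultures as sequenced, which the markers do not show to be germ cells.

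The members stood in the same order of level in every library. Levels are given as FPKM, counts scaled to exon length and library total, as deposited, so that genes of different length can be compared. Averaged over the 4 libraries, Bax stood first at 116 FPKM, followed by Bak1 at 64.5, Mcl1 at 56.4, Bid at 39.8, Bcl2l1 at 34.2, Bbc3 at 11.9, Bad at 9.32, Bcl2 at 4.17 and Bcl2l11 at 1.48 FPKM. The ranges over the 4 libraries did not overlap between any 2 neighbours in this order. Bax lay above 95.6% of tested genes by FPKM and Bcl2l11 above only 19.9%. In bulk RNA, fewer cells that express a gene and less RNA per cell cannot be told apart.

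**Figure D1:**
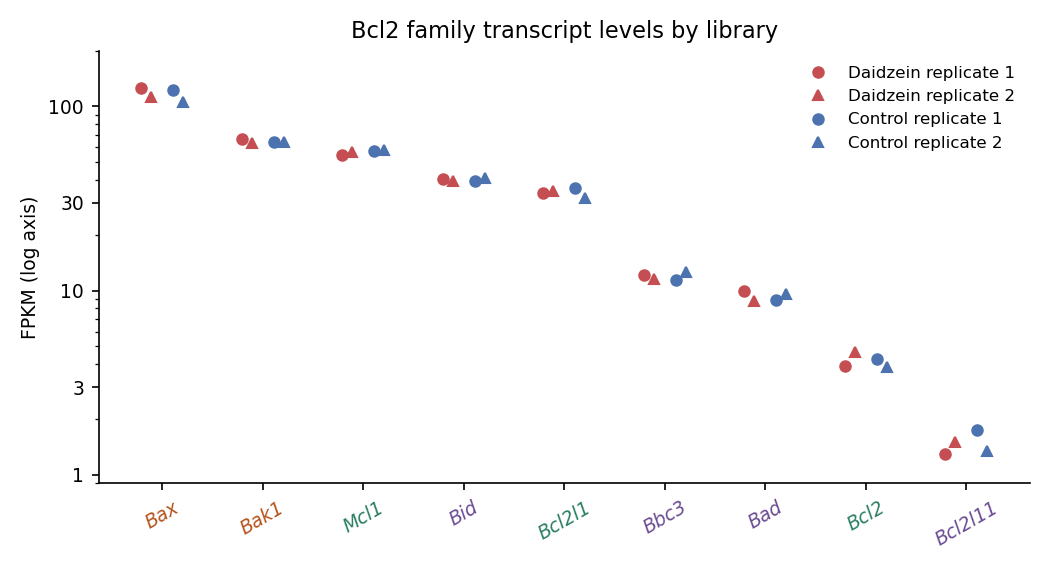
FPKM on a log axis for the 9 members with reads, ordered by their mean and with gene names coloured by class (guardians green, effectors orange, BH3-only purple). Each point is 1 library, with Daidzein in red and Control in blue. The points of a gene lie close together, from a highest-to-lowest ratio of 1.04 for Bid to 1.35 for Bcl2l11, while the genes span 116 to 1.48 FPKM in mean level.

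The order at the ends of the scale did not depend on which gene length was used, but the order in the middle did. FPKM divides by all annotated exon bases of a gene, which is 9157 bases for Bcl2 and 8029 for Bcl2l11, against 1576 for Bax. With the length of 1 annotated transcript in its place, a choice made after seeing the data, Bax still ranked first and Bcl2 and Bcl2l11 eighth and ninth. Bak1, Bcl2l1 and Bid then averaged 65.0, 64.8 and 64.6 on that scale with overlapping ranges, and Mcl1 came next at 56.4. Bad then averaged 16.4 and Bbc3 13.96, the reverse of their order in FPKM. Gene totals also do not separate splice forms, such as the long and short products of Bcl2l1 and Mcl1 or the several Bim forms of Bcl2l11.

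No member passed the test between Daidzein and Control. Of the 9 members with enough reads, 0 rose and 0 fell in the quasi-likelihood test of edgeR, adjusted by Benjamini-Hochberg over all genes, where 0.0171% of all tested genes were called, all of them lower. At an unadjusted p under 0.05 there were 0 members, against 2.91% of tested genes. DESeq2 called 0 members, beside 2 of 19575 genes. With limma on FPKM, 0 members and 0 of 11700 genes passed. With so few calls over all genes, these counts of 0 say little about the members. Folds ran from 0.906 for Bcl2l11 to 1.06 for Bcl2, and the adjusted p by edgeR was 1.00 for every member. Of the 9, 5 were higher and 4 lower, with a median log2 difference of 0.01, beside -0.0027 over all tested genes. All 9 of the 95% intervals of the folds included 1, as did those of 97.5% of tested genes, and together they reached from 0.728 to 1.22.

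**Figure D2:**
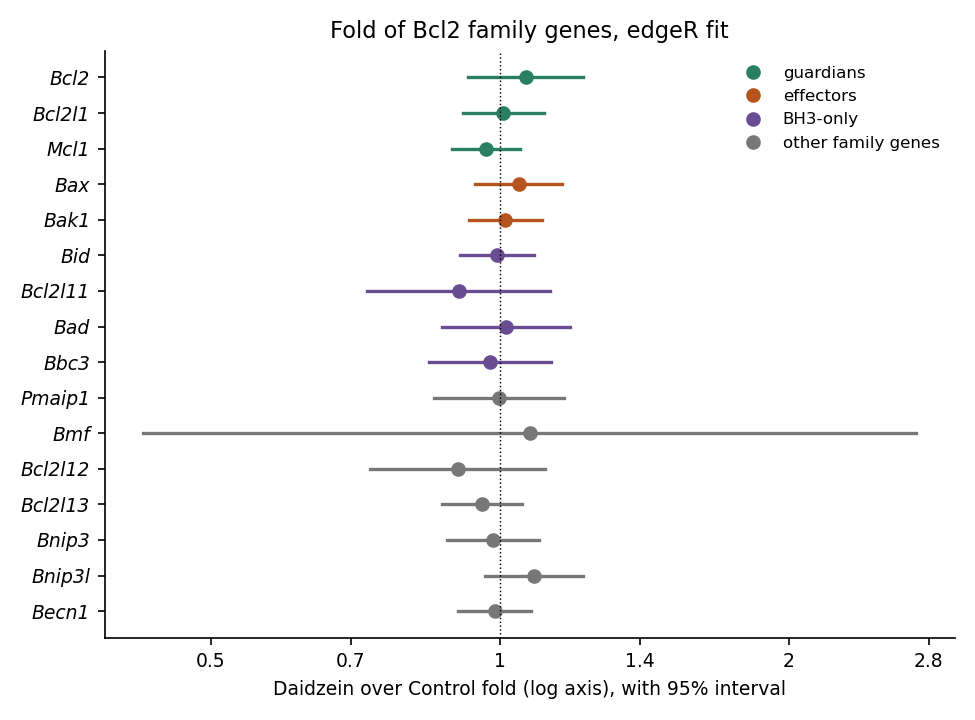
Fold of Daidzein over Control on a log axis, with the 95% interval of the edgeR fit as a bar, for 9 members coloured by class and 7 other family genes in grey. All intervals cross 1, the narrowest interval of a member belongs to Mcl1 (0.892 to 1.05) and the widest bar to Bmf (0.425 to 2.72).

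Among the guardians, Mcl1, a short-lived protein that holds Bak1 and Bim in check, stood highest in FPKM, while per length of 1 annotated transcript Bcl2l1 stood above it, with ranges of 60.4 to 68.7 for Bcl2l1 and 54.6 to 57.7 for Mcl1. Mcl1 (ENSMUSG00000038612; GRCm38 chromosome 3, 95658788 to 95663176, plus strand, protein-coding) had 54.6 and 56.3 FPKM with daidzein against 56.8 and 57.7 FPKM in Control. Both Daidzein libraries lay below both Control libraries, the 1 member of 9 whose groups did not overlap, where 29.7% of tested genes had groups that did not overlap in either direction and 15.0% had Daidzein below. Its fold was 0.968 (95% interval 0.892 to 1.05), and its log2 difference stayed between -0.06 and -0.03 with any 1 library left out. It was made up of 3153 to 3565 reads per library.

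Bcl2l1, which encodes the guardian Bcl-xL, overlapped between the groups. Bcl2l1 (ENSMUSG00000007659; chromosome 2, 152780668 to 152831728, minus strand) had 33.9 and 34.7 FPKM with daidzein and 36.2 and 31.8 FPKM in Control. The Daidzein libraries lay between the Control libraries, and the fold was 1.01 (0.915 to 1.11). Its log2 difference of 0.01 was 0.11 without Control replicate 1 and -0.08 without Control replicate 2.

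Bcl2, the founding guardian of the family, was the lowest of the 3 guardians. Bcl2 (ENSMUSG00000057329; chromosome 1, 106538178 to 106714274, minus strand) had 3.91 and 4.67 FPKM with daidzein and 4.23 and 3.85 FPKM in Control. Daidzein replicate 2 was the highest library and the others were close together, so the groups overlapped. The fold was 1.06 (0.926 to 1.22), and the log2 difference of 0.09 was -0.03 without Daidzein replicate 2. Within the guardians, in FPKM and so with all exon bases as length, Mcl1 took 59.1% and 58.8% of summed FPKM with daidzein and 58.4% and 61.8% in Control, Bcl2l1 took 34.1% to 37.2% and Bcl2 4.12% to 4.88% over the 4 libraries. Mcl1 stood at 13.97 and 12.05 times the Bcl2 level with daidzein and at 13.4 and 14.99 times in Control.

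Bax was the most abundant member, and its same-group libraries differed by more than counting error in both groups. Bax (ENSMUSG00000003873; chromosome 7, 45461697 to 45466898, minus strand), a cytosolic effector that moves to mitochondria when activated, had 125 and 113 FPKM with daidzein and 122 and 106 FPKM in Control. Replicate 1 was above replicate 2 in both groups. The ratio of replicate 1 to replicate 2, per depth, was 1.11 with daidzein (95% exact binomial interval 1.06 to 1.17) and 1.15 in Control (1.095 to 1.21). These intervals cover counting error only. Such intervals excluded 1 for 3 of 9 members in each group, with Bax among them in both. Spread above counting error was also general. Over genes of 40 or more pooled reads, the chi-square per degree of freedom was 4.38 within Daidzein and 4.17 within Control. The fold of Bax between groups was 1.05 (0.943 to 1.16). Its log2 difference of 0.07 was 0.18 without Control replicate 1 and -0.04 without Control replicate 2. Each of these fits leaves 1 Control library, so only the log2 difference is given.

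Bak1, the effector that resides in the mitochondrial membrane, had a narrower range. Bak1 (ENSMUSG00000057789; chromosome 17, 27019810 to 27029009, minus strand) had 66.7 and 63.2 FPKM with daidzein and 64.2 and 63.9 FPKM in Control. The groups overlapped, and the fold was 1.01 (0.929 to 1.11). Bax stood at 1.88 and 1.79 times Bak1 with daidzein and at 1.90 and 1.65 times in Control.

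**Figure D3:**
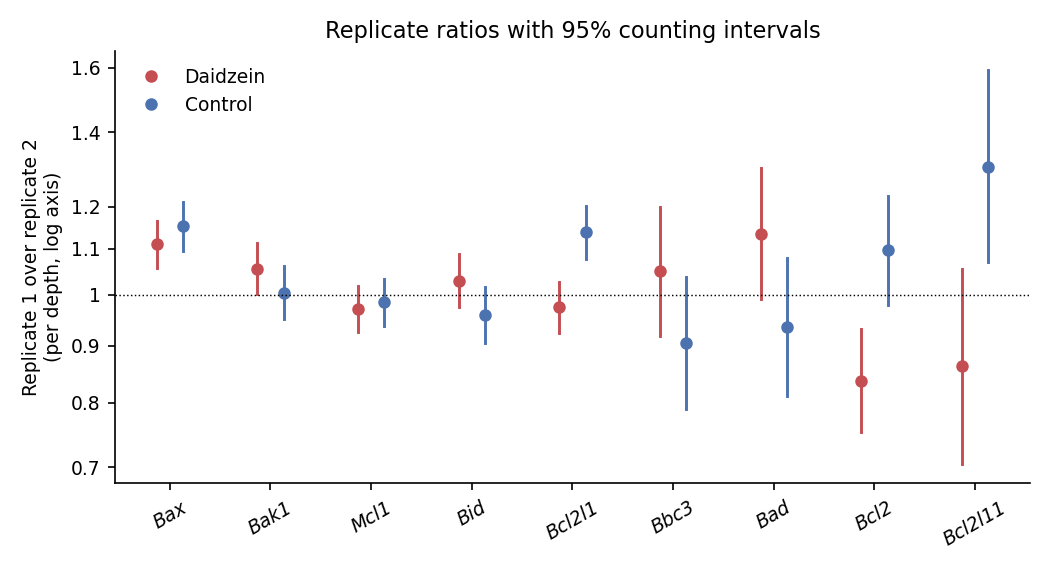
Ratio of replicate 1 to replicate 2 per depth on a log axis, for Daidzein (red) and Control (blue), with 95% exact binomial intervals that cover counting error only. For Bax the ratio lies above 1 in both groups (1.11 with daidzein and 1.15 in Control), while for Bcl2 it lies at 0.838 with daidzein and 1.097 in Control.

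Among the BH3-only genes, Bid was the most abundant and Bik was not detected. Bid, which is cleaved by caspase-8 and links death receptors to mitochondria, had 40.3 and 39.1 FPKM with daidzein and 39.1 and 40.8 FPKM in Control (ENSMUSG00000004446; chromosome 6, 120891930 to 120916853, minus strand). The groups overlapped, and the fold was 0.993 (0.910 to 1.08). Bid took 63.3% to 64.2% of the summed BH3-only FPKM in all 4 libraries.

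Bbc3 encodes Puma, a BH3-only protein whose gene is a well known target of p53. Bbc3 (ENSMUSG00000002083; chromosome 7, 16308393 to 16318205, plus strand) had 12.1 and 11.5 FPKM with daidzein and 11.5 and 12.7 FPKM in Control, and both Daidzein values lay within the Control range. Its fold was 0.978 (0.845 to 1.13). Bad, whose product is held by 14-3-3 proteins after phosphorylation by Akt, had 9.98 and 8.79 FPKM with daidzein and 8.94 and 9.55 FPKM in Control (ENSMUSG00000024959; chromosome 19, 6941861 to 6951899, plus strand). The Daidzein libraries lay on either side of the Control libraries, with a fold of 1.02 (0.870 to 1.18).

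Bcl2l11, which encodes Bim, an activator that cytokine withdrawal induces in blood cells, was the lowest member with reads. Bcl2l11 (ENSMUSG00000027381; chromosome 2, 128126038 to 128162547, plus strand) had 1.30 and 1.51 FPKM with daidzein and 1.76 and 1.35 FPKM in Control, from 180 and 225 reads with daidzein and 230 and 186 in Control. Control replicate 1 was the highest library, and the groups overlapped. The fold was 0.906 (0.728 to 1.13), and the log2 difference of -0.14 was 0.06 without Control replicate 1 and -0.33 without Control replicate 2. Bik (ENSMUSG00000016758; chromosome 15, 83526862 to 83544634, plus strand), a BH3-only gene of the endoplasmic reticulum, had 0 reads in all 4 libraries, a count whose upper limit, from a floor of 3 reads over all libraries, is 0.0434 CPM or 0.0273 FPKM for counting error only. A difference in Bik was not detectable at this depth.

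Summed by class, effectors exceeded guardians, and guardians exceeded BH3-only genes, in each library. Guardians summed to 92.4 and 95.7 FPKM with daidzein and 97.3 and 93.4 FPKM in Control. Effectors summed to 192 and 176 FPKM with daidzein and 186 and 170 FPKM in Control, and BH3-only genes to 63.7 and 60.9 FPKM with daidzein and 61.3 and 64.4 FPKM in Control. The groups overlapped in all 3 sums.

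The ratio of guardians to effectors was 0.481 and 0.544 with daidzein and 0.523 and 0.551 in Control, a mean of 0.512 ± 0.0441 with daidzein and 0.537 ± 0.0194 in Control (SD, n = 2 each). The log2 difference between the groups was -0.07, within the spread between replicates (pooled SD 0.10 on the log2 scale), and it was 0.02 without Daidzein replicate 1 and -0.16 without Daidzein replicate 2. Guardians stood at 1.45 and 1.57 times the BH3-only genes with daidzein and 1.59 and 1.45 times in Control, a log2 difference of -0.01 with a pooled SD of 0.09. No test was made of these ratios, since the members of each sum had been chosen. The ratio of Bcl2 to Bax was 0.0312 and 0.0414 with daidzein and 0.0347 and 0.0364 in Control, so the Control libraries lay between the Daidzein libraries.

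The level of the guardian to effector ratio, unlike its difference between groups, depended on scaling by length. In reads, not divided by length, guardians stood at 1.06 and 1.196 times the effectors with daidzein and 1.15 and 1.18 times in Control. Per length of 1 annotated transcript the ratio was 0.420 and 0.477 with daidzein and 0.458 and 0.479 in Control. In all, the members took 940 and 922 CPM with daidzein and 946 and 906 CPM in Control, before TMM scaling. Transcript levels do not give the amounts or the binding of the proteins.

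**Figure D4:**
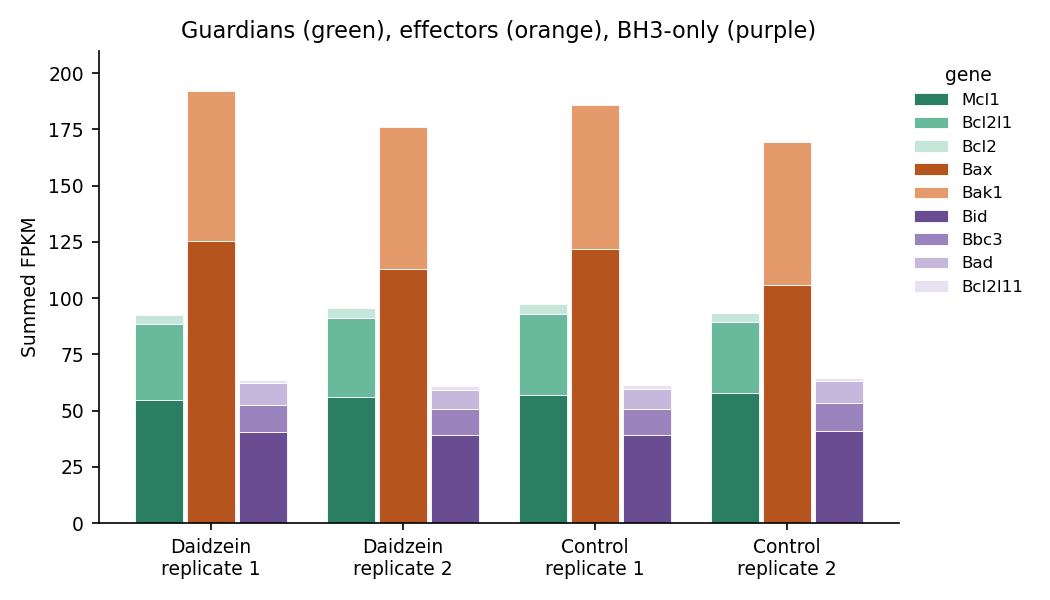
Summed FPKM per library for guardians (green), effectors (orange) and BH3-only genes (purple), stacked by gene, with the Daidzein libraries left of the Control libraries. Effectors reach 170 to 192, guardians 92.4 to 97.3 and BH3-only genes 60.9 to 64.4 FPKM, and each class overlaps between the groups.

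Among the tested genes, the differences of the members were of ordinary size. The median absolute log2 difference of all tested genes was 0.06. Among the members, Bcl2l11, which had the fewest reads of those tested, lay farthest from 0 at -0.14 and Bid nearest at -0.01.

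**Figure D5:**
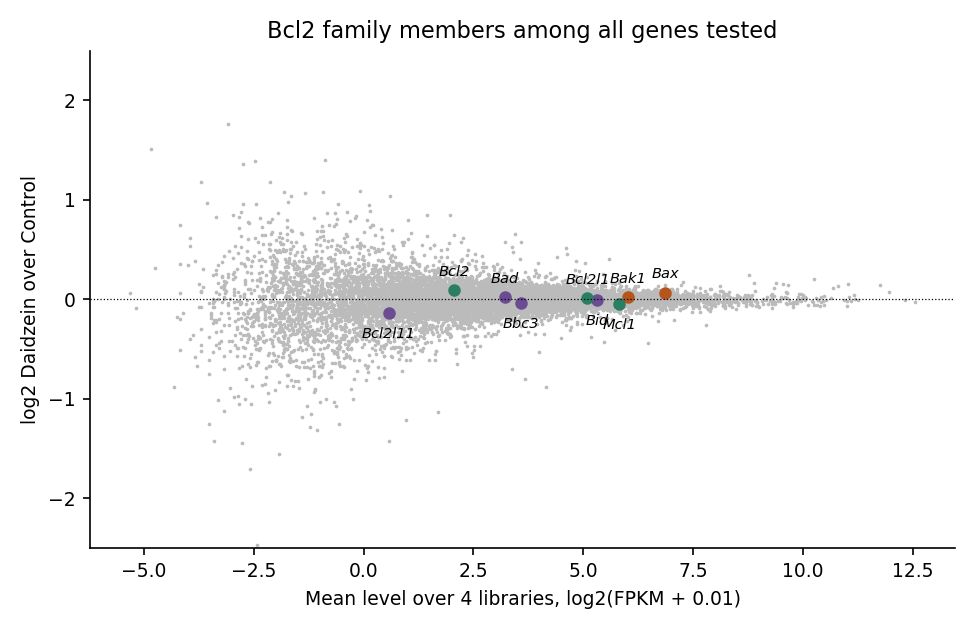
Mean level over the 4 libraries as log2(FPKM + 0.01) against the log2 difference of Daidzein over Control for 11700 tested genes (grey), with the 9 tested members marked and coloured by class. The members lie between -0.14 and 0.09 on the vertical axis, within the cloud of genes of like level.

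Several other family genes were not detected at all. Of 5 other guardians, Bcl2a1a, Bcl2a1b, Bcl2a1d and Bcl2l10 had 0 reads in every library, and Bcl2l2, which encodes Bcl-w, had 0 reads with daidzein and 0 and 3 in Control. The Bcl2a1 transcripts match 3 near-identical copies each at 95% identity over at least 0.5 of their length, so reads from them could have been left uncounted, and their 0 is uncertain. Bcl2l2 shares 13.3% of its exon bases with the overlapping gene Gm20521, which matches it by the same criterion and had 0 reads, so the level of Bcl2l2 is uncertain in the same way. Bok, the third effector gene, and Hrk, a BH3-only gene of neurons, had 0 reads in every library.

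The other BH3-only genes with reads were Pmaip1 and Bmf. Pmaip1, which encodes Noxa, a specific partner of Mcl1, had 9.47 and 12.1 FPKM with daidzein and 11.1 and 10.6 FPKM in Control. The Daidzein libraries lay on either side of the Control libraries, with a fold of 0.998 (0.853 to 1.17). Its level was close to that of Bbc3 and Bad. Bmf, a BH3-only gene linked to loss of attachment, had 4 and 16 reads with daidzein and 10 and 7 in Control, too few to place its fold more closely than 0.425 to 2.72.

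The 7 relatives of the family were tested where reads allowed, and of the 5 tested 0 rose and 0 fell. Bnip3l, a mitophagy receptor, had 12.4 and 13.99 FPKM with daidzein and 12.2 and 12.1 FPKM in Control, with a fold of 1.09 (0.966 to 1.22), and its groups did not overlap. Bcl2l12 had a fold of 0.904 (0.733 to 1.11), with 5.18 and 4.64 FPKM with daidzein and 5.55 and 5.32 FPKM in Control, and its groups did not overlap either. Bcl2l13 had a fold of 0.958 (0.870 to 1.06) and the hypoxia-inducible mitophagy receptor Bnip3 of 0.985 (0.882 to 1.099).

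Genes that act with the family at the mitochondrion were expressed at widely different levels and 0 of 9 passed the test. Vdac2, a membrane channel that binds Bak1, had 105 and 101 FPKM with daidzein and 109 and 105 FPKM in Control, with a fold of 0.961 (0.889 to 1.04). Folds were 0.934 (0.851 to 1.02) for Htra2, a protease released with cytochrome c, 0.934 (0.830 to 1.05) for the mitochondrial nuclease gene Endog, and 1.04 (0.9505 to 1.13) for Aifm1, the apoptosis-inducing factor. The list had 4 genes higher and 5 lower, with a median log2 difference of -0.02.

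Regulators of the proteins also gave 0 calls, among 14 tested, 8 higher and 6 lower, with a median log2 difference of 0.01. Pim1, a kinase that phosphorylates Bad, had a fold of 0.933 (0.851 to 1.02), with 46.9 and 46.3 FPKM with daidzein and 52.5 and 47.4 FPKM in Control. Its groups did not overlap, with daidzein lower, and the log2 difference of -0.10 was -0.02 without Control replicate 1. Ywhaz and Ywhah, which encode 14-3-3 proteins, had folds of 1.05 (0.971 to 1.13) and 0.955 (0.882 to 1.03). The groups of Ywhaz did not overlap, with daidzein higher, while those of Ywhah did. Fbxw7, a ubiquitin ligase subunit that targets Mcl1, had a fold of 1.07 (0.933 to 1.24), and its groups did not overlap, with daidzein higher.

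Of 12 transcription regulators of family genes, 11 were tested, with 4 higher, 7 lower and 0 called. Stat5a, which drives Bcl2l1 in blood cells, had 30.8 and 31.1 FPKM with daidzein and 32.2 and 32.3 FPKM in Control, a fold of 0.960 (0.887 to 1.04) with groups that did not overlap. Foxo1, which can induce Bcl2l11 when Akt is inactive, had a fold of 1.09 (0.897 to 1.33), and its groups did not overlap, with daidzein higher. Mitf, known to regulate Bcl2 in melanocytes, had a fold of 1.04 (0.919 to 1.19), and the blood cell factor Runx1 of 0.976 (0.888 to 1.07). Over all 51 other genes listed, 41 were tested, and 11 of these had groups that did not overlap, beside 29.7% of all tested genes.

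Some members share exon bases with other genes, and the sources used here do not give the strand setting of the counting. Bad shares 20.5% of its exon bases with Gpr137 on the opposite strand, which had 504 and 497 reads with daidzein and 391 and 445 in Control, so reads of the pair cannot be told apart in that stretch. Bid shares 17.7% with Bcl2l13 on the opposite strand, and Bak1 25.5% with Ggnbp1, which had at most 2 reads in any library. Bax shares 12.2% with Gm45808, a gene model of near-identical sequence that had 3 and 0 reads with daidzein and 0 in both Control libraries, so reads of the pair could have been left uncounted, and Bcl2 6.1% with D630008O14Rik, which had 0 reads. Bcl2l1, Mcl1, Bcl2l11, Bbc3 and Bik share no exon base with another gene. Of the other genes given a fold above, Htra2 shares 43.7%, Endog 35.7%, Bcl2l12 33.4% and Bnip3 22.3% with genes on the opposite strand. Smaller shares are not listed. Their levels and folds carry the same limit.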

How the data were processed

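For each gene the authors deposited raw read counts and FPKM values. All 65326 FPKM values with a read lay within 0.01 of the value recomputed from the count, exon length and library total. Tools named in the submitters' processing notes, without their roles, are DESeq2, HTSeq 0.6.1 and HISAT2 2.0.1, and the build named is mm9. The coordinates in the table are those of GRCm38: of 55401 genes, 55141 matched GENCODE M21 by identifier, 99.61% of these with the same start, and all 10 members with the same start and end.

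The deposited counts went into edgeR 4.0.16 under R 4.3.3 (quasi-likelihood F test, TMM, default filterByExpr, prior count 2, Benjamini-Hochberg over 11700 genes at 0.05), with Daidzein against Control in 2 libraries each. The edgeR test was also run on simulated counts with 50 genes changed at each fold. It recovered 38% of those changed 1.25-fold, 70% at 1.5-fold and 88% at 2-fold, so small changes were often missed. The simulation changed 200 genes at once, which eases the adjusted cut-off, while the real table had 2 calls. These rates may therefore overstate what could be detected in the real table. The test made 13 false calls among unchanged genes in the simulation, and 0 calls where no gene was changed. Levels used FPKM. Where several rows had the same symbol, the one with most reads was used. Where a gene had 0 reads, the floor was 3 counts. Intervals and floors from counts of a gene cover counting error only. Near-identical copies were searched with blastn 2.17.0. In a chi-square comparison restricted to genes of 40 or more pooled reads, the 6 pairs of libraries gave 2.23 to 4.81 per degree of freedom, above sampling noise, so none was treated as a duplicate. Alternatives were DESeq2 1.42.0, other filters, a replicate block, robust estimation, limma 3.58.1 on FPKM with a pseudocount of 1 or 0.1, a prior count of 0.5, class ratios in CPM, per transcript length, without Mcl1 or as geometric means, and each library left out.

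Members, lists and tests were chosen with earlier results of these data known. Named genes are the members, up to 4 genes of each other list with the smallest p, Bcl2l2, Bcl2a1b, Bok, Pmaip1, Bmf, Hrk and 6 markers. Genes named for overlap or copies, and the remaining markers named, were picked with their values in view.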

Additional observations from a re-analysis of the deposited data

How the results depend on the processing

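Under every alternative run, 0 of 9 members and 0 of the other family and partner genes passed, and the lowest adjusted p of a member was 0.868, for Bax with the replicate number as a block in edgeR. Of 108 recomputed log2 differences of members, 12 had the other sign, none of them past the threshold. The log2 difference of Bax, 0.07 in the main fit, ranged from -0.04 to 0.18 when each library was dropped. The count of changed genes over the whole table, 2, was 11 with low-count genes kept, 1 with a minimum of 5 CPM in 2 libraries, 0 by limma on log2(FPKM + 1) and 0 on log2(FPKM + 0.1), and 4 to 17 when each library in turn was dropped, a fit that takes the spread of the remaining single library from the other group. With the replicate block it was 27, with 748 genes at an unadjusted p under 0.05. The cause was not tested. No label says that the numbers mark a shared culture or batch, and same-numbered deviations had a correlation of 0.09 in 2 pairs, so they were not treated as pairs. Yet the same-numbered libraries were the closest of the 6 pairs, with a chi-square per degree of freedom of 2.23 for replicate 2 and 3.51 for replicate 1, below 4.38 within Daidzein and 4.17 within Control. This is a hint from the data and not from the design. The log2 difference of the guardian to effector ratio was -0.16 to 0.02 when each library was dropped, -0.07 with the replicate block and -0.03 without Mcl1. That of guardians to BH3-only genes was -0.07 to 0.06 when each library was dropped, 0.03 without Mcl1 and 0.06 for geometric means, which left out Bik. The values without Mcl1 and for geometric means stayed within 1 SD between replicates of the value reported. With 2 libraries per group, dropping 1 could not move a ratio beyond that SD. The replicate block cannot change the mean difference. Neither setting therefore checks the ratios. Depth limits Bmf and Bik. For Bcl2l2 and the Bcl2a1 genes, reads shared with near-identical copies may also be uncounted, which depth would not change.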
